A study of Sus scrofa with 12 samples.

Results

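The genes described here write, copy, remove or protect DNA methylation. They were named with earlier results of these data known, although no measured value enters the rule, and there are 10 of them: DNMT1, DNMT3A, DNMT3B, UHRF1, UHRF2, TET2, TET3, DPPA3, ZFP57 and TRIM28. By symbol, 8 of the 10 were matched to one of the 31908 gene identifiers of the expression tables. No identifier could be matched to TET2 or DPPA3, whose transcript levels were not analysed here and which enter only the search of transcript ends. The study followed porcine (Sus scrofa) oocytes through in vitro maturation, in which cumulus-oocyte complexes taken from antral follicles are cultured until the oocyte reaches metaphase of the second meiotic division. RNA was measured in 12 libraries, 4 at each of 0h (the germinal vesicle stage, before meiotic resumption), 22h (before the first metaphase) and 46h (MII). The paper takes these stages from its authors' earlier count at the same or nearby times, in which part of the oocytes were not at the stage named. It gives no such count for these pools, and the labels name the time only. Each library was a pool of oocytes freed of their cumulus cells, and the complexes came from ovaries of prepubertal gilts collected at a slaughterhouse. The maturation medium held epidermal growth factor, the hormones PMSG and HCG, and porcine follicular fluid. Time in this medium and stage cannot be told apart. Beyond the medium, no group carried a mutation or a drug treatment. The design text gives the middle time as 24h, whereas the sample labels and the methods give 22h, which is used here.

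DNA methylation in mammals is set by a division of labour. DNMT3A and DNMT3B add methyl groups to cytosines that carried none. In the growing oocyte, methylation of this kind lays down the maternal imprints, which DNMT3A sets, and most other oocyte methylation. DNMT1 copies existing methylation onto the new strand after DNA replication, guided by UHRF1, which binds hemimethylated CpG sites, and UHRF2 is its close relative. TET enzymes oxidise 5-methylcytosine and so start its removal. After fertilisation the genome loses much of its methylation, and imprinted sites are spared through the KRAB zinc finger protein ZFP57, its corepressor TRIM28 (also called KAP1), and DPPA3 (also called STELLA). A maturing oocyte makes little new RNA, and many of its stored messages are lengthened or shortened in their poly(A) tails. The libraries were primed with oligo-dT, so that a transcript had to carry a poly(A) stretch to be captured.

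The ends of these messages are therefore shown first, since the sequence elements that direct poly(A) tailing lie there. The last 100 bases of each gene's RefSeq transcript (Sscrofa11.1) were searched for the poly(A) signal, AATAAA or ATTAAA, and for the cytoplasmic polyadenylation element, TTTTAT or TTTTAAT, both on the transcript strand only. TTTTAAT can overlap AATAAA by 3 letters. All 10 genes had such a window. A poly(A) signal lay in 8 of the 10, and a cytoplasmic polyadenylation element in 4 of the 10, namely DNMT1, UHRF2, TET3 and TET2. Over the 19081 protein-coding genes with a window of this length, 63.5% held a poly(A) signal, 15.5% held the element and 11.8% held both. The stretches of 30 bases below were chosen to set the 3 measured genes with an element beside 2 measured genes without one. They are all 3′ UTR sequence, read 5′ to 3′ on the transcript strand, with whole matches to either motif in capitals.
DNMT1 (chr2:68981584-68981613, minus strand): TTTTATatgttgtaatatttcttcaaataa
UHRF2 (chr1:215730225-215730254, minus strand): ccctaaagtataccttAATAAAtaTTTTAT
TET3 (chr3:68918916-68918945, minus strand): aaatattgtgggtgTTTTAATAAATTTTAT
DNMT3B (chr17:36386029-36386058, plus strand): tgcctagagtttaccttatgttgaATTAAA
TRIM28 (chr6:63101489-63101518, plus strand): tatggtttttacttctgtggatttAATAAA

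In DNMT1 the element began 48 bases from the transcript end and the poly(A) signal 23 bases from it, so that the signal runs past the edge of the stretch shown and stands in lower case. In UHRF2 elements began 61 and 19 bases from the end, on either side of a signal 27 bases from it. In TET3 the element at 36 bases overlapped a signal at 32 bases, and the element at 26 bases directly followed that signal. DNMT3B had a signal at 24 bases and TRIM28 at 20 bases, and neither had an element within the window. DNMT3A and ZFP57 held neither motif in theirs, which says only that these letters were not in that window.

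The 8 measured genes lie on 6 chromosomes in RefSeq's annotation of Sscrofa11.1. DNMT1 spans chr2:68981564-69040364 on the minus strand and UHRF1 chr2:73898061-73937727 on the minus strand. DNMT3A spans chr3:113501972-113609148 on the plus strand and TET3 chr3:68918896-69020406 on the minus strand. DNMT3B spans chr17:36345715-36386076 on the plus strand, UHRF2 chr1:215730212-215807630 on the minus strand, TRIM28 chr6:63094382-63101532 on the plus strand and ZFP57 chr7:22607420-22612064 on the minus strand. The authors' notes name their build as Sscrofa11, and the tables hold identifiers without coordinates.

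Values are FPKM, fragments of a gene scaled to transcript length and to the mapped fragments of the library, a scale that allows genes to be compared within a library. The totals per library ran from 697468 to 802184 FPKM, and the read depth behind them is unknown. The libraries of 0h, 22h and 46h held 6939 to 7895, 6682 to 7135 and 5819 to 6076 genes of at least 1 FPKM, and mitochondrially encoded protein genes took 1.793 to 3.765%, 8.056 to 12.02% and 12.79 to 16.69% of their totals. The library of 0h replicate 4 stood apart at its stage: its highest correlation with another 0h library was 0.97 against 0.986 to 0.988 for the others. Its median-of-ratios size factor was 1.389 against 1.003 to 1.14 for the other 0h libraries. At 22h, replicate 1 likewise reached at most 0.967 with another 22h library, against 0.98 to 0.984 for the others. Its size factor, 1.135, lay among those of the other 22h libraries (1.052 to 1.165). Of the 13 oocyte markers, 12 were matched, and all 12 reached 1 FPKM at 0h and 22h and 10 at 46h, with summed levels of 13749 to 22251, 19341 to 26266 and 9170 to 13417 FPKM. Their levels were not constant: between 0h and 46h the mean of GDF9 went from 984 ± 548 to 37.8 ± 3.73 FPKM, that of ZP3 from 2967 ± 1188 to 95.5 ± 69.7 FPKM, and that of BMP15 from 3077 ± 1680 to 2329 ± 358 FPKM (SD, n = 4 each). Of the 18 cumulus and granulosa cell markers, 15 were matched, and 3 of them reached 1 FPKM (VCAN, STAR and FST), with sums over the list of 46.2 to 88.7, 55.6 to 86.1 and 118 to 143 FPKM in the same order of stages. The other 12 stayed at or under 0.33 FPKM each, with INHA at 0 in every library and FSHR at most 0.14 FPKM, CYP19A1 had no matched identifier, and the part of these cells in the results was not tested. Among the 6 matched blood and stromal markers 1 reached 1 FPKM (PECAM1) and 3 were at 0. In such pools, fewer intact oocytes and less RNA per oocyte cannot be told apart. The labels do not say whether the replicates came from separate collections, so that the p-values below measure the spread between these samples only.

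The 8 measured genes spanned a wide range of transcript levels, and their order was largely fixed across maturation. DNMT1 stood at the top, UHRF2 followed, DNMT3A, DNMT3B and TRIM28 lay between 4.85 and 49.5 FPKM, TET3 lay near 1 FPKM, and UHRF1 and ZFP57 lay under the limit of a mean of 1 FPKM that a gene had to reach to be tested. Some neighbours in this order were not separated by their spread. DNMT3A and DNMT3B overlapped at 0h and 46h, DNMT3B and TRIM28 overlapped at 0h, and TET3 and UHRF1 overlapped at 0h, whereas at 22h no neighbouring pair overlapped.

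**Figure D1:**
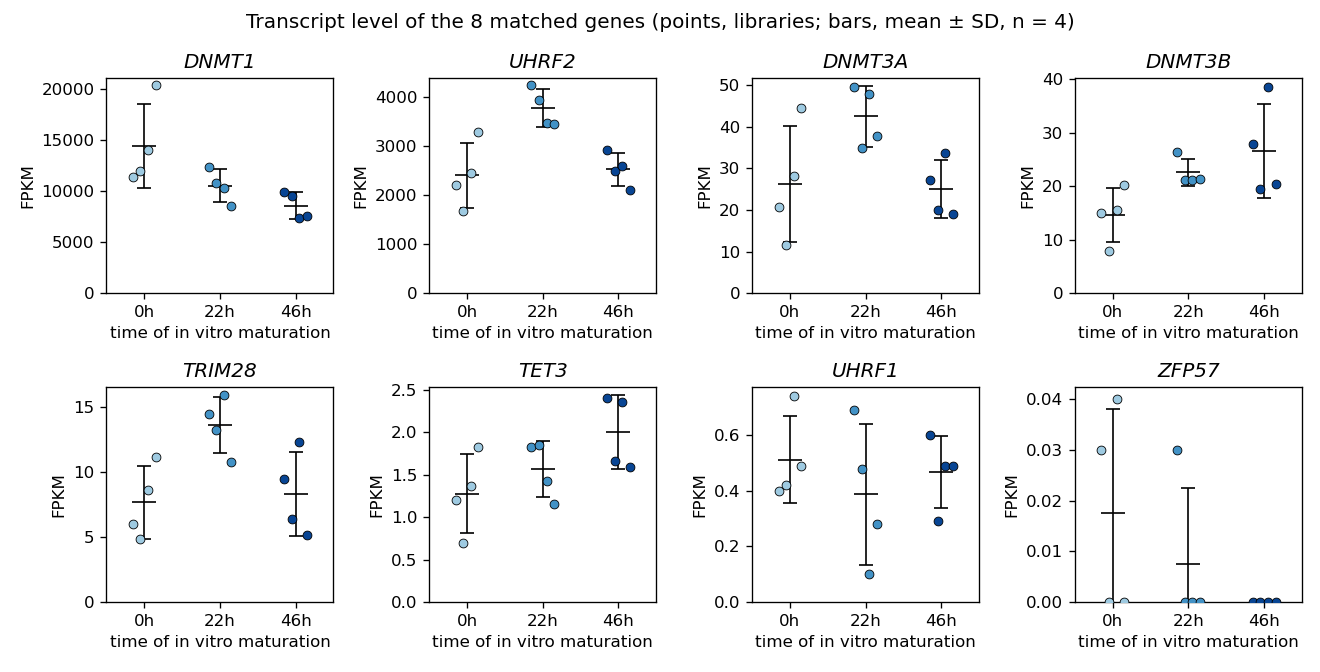
FPKM (linear axes starting at 0, 1 panel per gene) of the 8 measured genes in the 12 libraries by time of in vitro maturation, with points for libraries and bars for the mean ± SD of 4 libraries. DNMT1 lay between 7320 and 20364 FPKM and UHRF2 between 1669 and 4245 FPKM in every library, and UHRF1 stayed under 1 FPKM.

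DNMT1, the maintenance methyltransferase, was among the most abundant transcripts of the oocyte. Its level was 11380, 11983, 13988 and 20364 FPKM in the 4 libraries at 0h. It was 12393, 10827, 10336 and 8513 FPKM at 22h, and 9920, 9469, 7320 and 7505 FPKM at 46h. All 46h libraries were below all 0h libraries, while the 22h libraries overlapped with both. Among the 31908 identifiers DNMT1 ranked 6 to 10 at 0h, then 9 to 13, then 15 to 21, and its share of all FPKM was 1.63 to 2.6%, 1.16 to 1.6% and 0.924 to 1.24%. From 0h to 46h it fell by 0.73 on the log2(FPKM + 1) scale (SE 0.202, limma adjusted p = 0.00592), from 14429 ± 4111 to 8553 ± 1333 FPKM (SD, n = 4 each), a fold of 0.604. The steps from 0h to 22h (log2 difference -0.43, limma adjusted p = 0.119) and from 22h to 46h (-0.30, adjusted p = 0.24) did not pass, although the latter was -0.70 with quantile normalization (adjusted p = 0.00449) and then passed. The fall from 0h to 46h was -0.55 without 0h replicate 4 (limma adjusted p = 0.00982, a fold short of the threshold of 1.5) and -0.33 with median-of-ratios scaling (adjusted p = 0.146), so that the call depended on both.

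UHRF1, the reader of hemimethylated CpG sites that recruits DNMT1, was scarce at every stage. The 0h libraries held 0.4, 0.42, 0.74 and 0.49 FPKM, the 22h libraries 0.69, 0.48, 0.1 and 0.28 FPKM, and the 46h libraries 0.6, 0.29, 0.49 and 0.49 FPKM. All 3 stages overlapped. UHRF1 was therefore compared by an exact two-sided permutation test of 4 against 4 libraries, in which the smallest p is 0.0286 over 70 arrangements. The log2 differences were -0.14 for 22h against 0h (exact p = 0.429), 0.09 for 46h against 22h (exact p = 0.514) and -0.04 for 46h against 0h (exact p = 0.686).

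Its relative UHRF2, which also carries the domains that bind hemimethylated DNA and modified histone H3, was a highly abundant transcript with a peak at 22h. The level of UHRF2 was 2197, 1669, 2442 and 3276 FPKM at 0h. It was 4245, 3931, 3474 and 3452 FPKM at 22h and 2912, 2490, 2588 and 2098 FPKM at 46h. Every 22h library lay above every library of both other stages, and the 0h and 46h libraries overlapped. UHRF2 ranked 32 to 62 at 0h, then 32 to 42, then 39 to 48. It rose from 0h to 22h by 0.69 on the log2 scale (SE 0.196, limma adjusted p = 0.0156, fold 1.62) and fell from 22h to 46h by 0.59 (SE 0.196, adjusted p = 0.0232, fold 0.666), so that 46h against 0h gave 0.11 (adjusted p = 0.66). The rise was 0.53 without 0h replicate 2, a fold short of 1.5, and 0.38 after quantile normalization (adjusted p = 0.216). For 46h against 22h the difference was -0.23 under median-of-ratios and -0.22 under quantile scaling, neither past the threshold. The call was also lost with no filter on low values (adjusted p = 0.0744), with TPM without mitochondrially encoded genes (-0.58, a fold short of 1.5), and without 22h replicate 1 (-0.53) or 2 (-0.57) and without 46h replicate 2 (-0.58) or 4 (-0.50).

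The ratio of UHRF2 to DNMT1 within each library was picked after their values were seen, for that difference in course, and is given as a description with no test. A ratio of FPKM values in 1 library does not change when that library is scaled by 1 factor, as with TPM or median-of-ratios scaling. Quantile normalization is not of that kind and can change it. For 46h against 22h it gave -0.22 for UHRF2 and -0.70 for DNMT1, so that DNMT1 fell more than UHRF2, the reverse of the FPKM values. The ratio was 0.193, 0.139, 0.175 and 0.161 at 0h. At 22h it was 0.343, 0.363, 0.336 and 0.406, and at 46h it was 0.293, 0.263, 0.354 and 0.28. Every library at 22h and 46h had a higher ratio than every library at 0h. The geometric mean was 0.166 at 0h and 0.361 at 22h (log2 difference 1.12) and was 0.296 at 46h (log2 difference from 0h 0.83). The 46h and 22h libraries overlapped (log2 difference -0.29). With each library left out in turn the log2 difference ran from 1.038 to 1.195 for 22h against 0h and from 0.748 to 0.907 for 46h against 0h. A ratio shows unequal change and not which of the 2 transcripts changed.

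DNMT3A, a de novo methyltransferase that sets maternal imprints in mammals, had its highest mean at 22h. Its level was 20.8, 11.6, 28.1 and 44.5 FPKM at 0h. It was 49.5, 34.9, 47.9 and 37.8 FPKM at 22h, and 27.2, 19.9, 33.8 and 19.0 FPKM at 46h. All 46h libraries lay below all 22h libraries, and 0h replicate 4, at 44.5 FPKM, lay within the 22h range. None of the comparisons of DNMT3A passed: the log2 difference was 0.81 for 22h against 0h (SE 0.318, limma adjusted p = 0.0665), -0.77 for 46h against 22h (adjusted p = 0.0608) and 0.04 for 46h against 0h (adjusted p = 0.911). Without 0h replicate 4 the 22h against 0h difference was 1.11 and passed, as it did with median-of-ratios (0.86) and quantile (0.89) scaling and with TPM without mitochondrially encoded genes (0.90). The 46h against 22h difference passed with TPM (-0.86), in a fit of only these 2 groups (-0.77, adjusted p = 0.00893) and without 46h replicate 3 (-0.92), 0h replicate 2 or 0h replicate 4.

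DNMT3B, the other de novo methyltransferase, was higher at 46h than at 0h. Its level was 14.95, 7.85, 15.5 and 20.1 FPKM at 0h. It was 26.5, 21.2, 21.2 and 21.4 FPKM at 22h, and 27.9, 19.4, 38.6 and 20.4 FPKM at 46h. All 22h libraries lay above all 0h libraries, whereas the lowest 46h library lay just below the highest 0h library. DNMT3B rose from 0h to 46h by 0.84 on the log2 scale (SE 0.262, limma adjusted p = 0.0122, fold 1.79), from 14.6 ± 5.07 to 26.6 ± 8.87 FPKM (SD, n = 4 each). It passed under all 23 alternatives run, among them a call by adjusted p alone, which cannot lose a passing gene. Leaving out a 22h library left the difference itself unchanged. The call held narrowly without 0h replicate 2 (0.586, against a log2 threshold of 0.585) and without 46h replicate 3 (0.645, limma adjusted p = 0.0459). The difference between 22h and 0h was 0.66 (limma adjusted p = 0.0711) and passed without 0h replicate 4 (0.82), with median-of-ratios (0.70) and quantile (0.74) scaling, and with TPM without mitochondrially encoded genes (0.75). That between 46h and 22h was 0.18 (adjusted p = 0.595), and 0.66 with quantile normalization (adjusted p = 0.0258), which passed.

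The DNMT3A to DNMT3B ratio within a library was also picked after the values were seen and is given with no test. It was 1.39, 1.47, 1.81 and 2.21 at 0h, then 1.87, 1.65, 2.26 and 1.77 at 22h and 0.977, 1.03, 0.875 and 0.929 at 46h. In every library at 0h and 22h there was more DNMT3A than DNMT3B transcript per length, and at 46h the levels were nearly equal, with DNMT3B the higher in 3 of 4 libraries. The geometric mean was 1.69 at 0h, 1.87 at 22h and 0.95 at 46h. No 46h library overlapped with an earlier one: the log2 difference was -0.98 for 46h against 22h and -0.83 for 46h against 0h , and 0.15 for 22h against 0h. With each library left out in turn the difference ran from -1.04 to -0.89 for 46h against 22h and from -0.93 to -0.71 for 46h against 0h. DNMT3L, the catalytically inactive partner that stimulates de novo methylation in mouse oocytes, was listed at 0 in all 12 libraries.

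**Figure D2:**
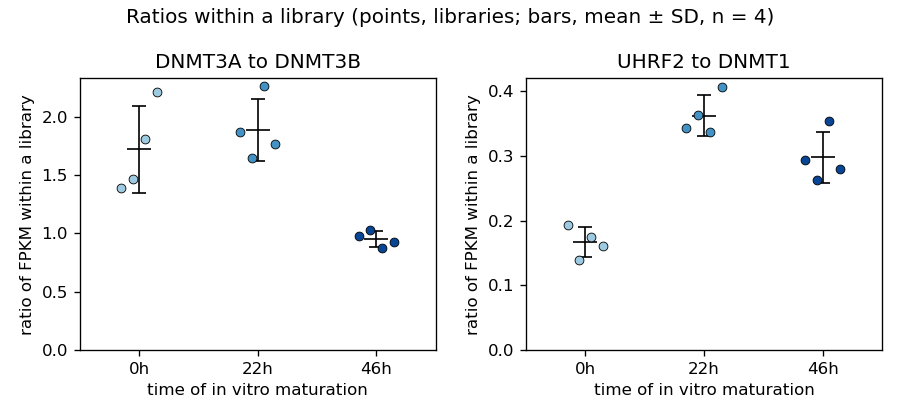
Within-library FPKM ratio of DNMT3A to DNMT3B (left) and of UHRF2 to DNMT1 (right) by time of maturation, with 1 point per library and bars for the arithmetic mean ± SD of 4 libraries. UHRF2 to DNMT1 lay between 0.139 and 0.193 at 0h and at 0.263 or above later, and DNMT3A to DNMT3B lay between 0.875 and 1.03 at 46h and at 1.39 or above earlier.

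TET3, the dioxygenase that oxidises 5-methylcytosine in the zygote, was present at a low level. Its level was 1.2, 0.7, 1.37 and 1.83 FPKM at 0h, 1.82, 1.85, 1.43 and 1.16 FPKM at 22h, and 2.4, 1.66, 2.36 and 1.59 FPKM at 46h. The stages overlapped in every comparison. The log2 difference was 0.19 for 22h against 0h (SE 0.18, limma adjusted p = 0.455), 0.22 for 46h against 22h (adjusted p = 0.32) and 0.41 for 46h against 0h (adjusted p = 0.0594). The last passed with median-of-ratios scaling (0.67, adjusted p = 0.0014) and quantile scaling (1.06), and 46h against 22h passed with quantile scaling (0.70, adjusted p = 0.00139). At this level the pseudocount of 1 makes the fold on the log2(FPKM + 1) scale smaller than that of the FPKM values, whose means were 1.27 ± 0.467 at 0h and 2 ± 0.437 at 46h (SD, n = 4 each). TET1, another member of the family, lay between 0.13 and 0.53 FPKM.

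TRIM28, the corepressor that KRAB zinc finger proteins bring to imprinted sites, had its highest levels at 22h. Its level was 6.04, 4.85, 8.61 and 11.2 FPKM at 0h. It was 14.5, 13.3, 16.0 and 10.8 FPKM at 22h, and 9.5, 6.37, 12.4 and 5.16 FPKM at 46h. The lowest 22h library, replicate 4, overlapped with the highest library of each of the other stages. TRIM28 rose from 0h to 22h by 0.80 on the log2 scale (SE 0.266, limma adjusted p = 0.0337, fold 1.74) and fell from 22h to 46h by 0.70 (SE 0.266, adjusted p = 0.0416, fold 0.615), and 46h against 0h gave 0.10 (adjusted p = 0.764), which was 0.74 with quantile scaling (adjusted p = 0.00831) and then passed. Both calls were close to the threshold. With no filter on low values neither passed (adjusted p = 0.081 and 0.106). The rise did not pass without 0h replicate 1 (0.72) or 2 (0.63), or without 22h replicate 1 (0.77), 2 (0.81) or 3 (0.73), and the fall did not pass with median-of-ratios (-0.38) or quantile (-0.21) scaling, nor without 0h replicate 3 (-0.70), 22h replicate 1 (-0.67), 2 (-0.71) or 3 (-0.63), or 46h replicate 2 (-0.61) or 4 (-0.52).

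ZFP57, the zinc finger protein that binds methylated imprinting control regions, was almost without signal. It was listed at 0.03, 0, 0.04 and 0 FPKM at 0h, at 0.03 FPKM in 1 library and 0 in the other 3 at 22h, and at 0 in all 4 libraries at 46h. The exact permutation test gave p = 0.714, 1 and 0.429 for 22h against 0h, 46h against 22h and 46h against 0h. Without counts, the level that these values exclude is unknown.

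**Figure D3:**
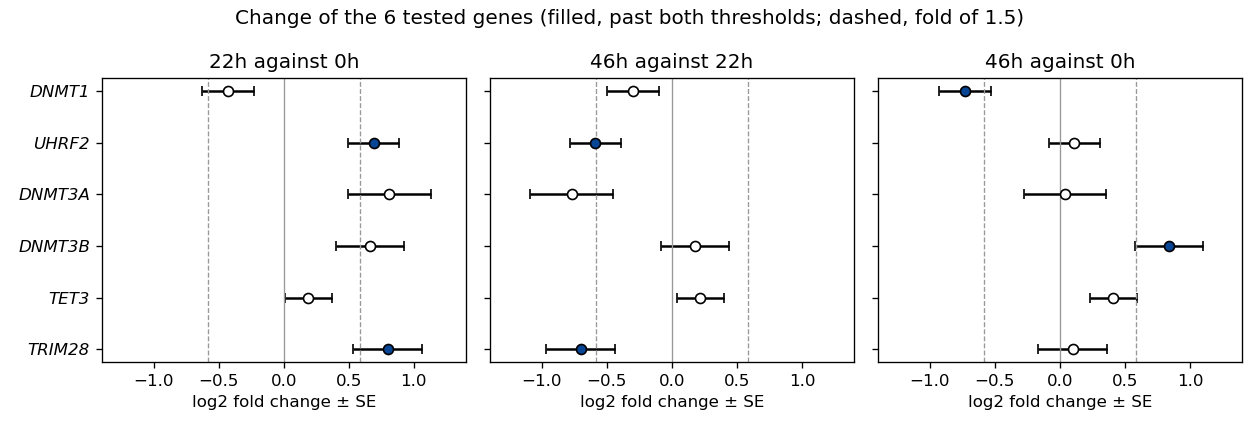
Difference in log2(FPKM + 1) with its standard error for the 6 tested genes in each comparison of stages (limma over all 12 libraries), filled where past both thresholds, with dashed lines at a fold of 1.5. UHRF2 and TRIM28 were higher at 22h than at 0h and lower at 46h than at 22h. DNMT1 was lower and DNMT3B higher at 46h than at 0h, and the remaining differences did not pass the thresholds. Median-of-ratios or quantile scaling changed some calls of either kind. Under both, the falls of UHRF2 and TRIM28 from 22h to 46h no longer passed. The fall of DNMT1 was lost under median-of-ratios and the rise of UHRF2 under quantile scaling.

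Passing required both an adjusted p under 0.05 and a fold over 1.5, and 6 of the 8 measured genes entered the test among 7013 genes. For 22h against 0h, 2 of the 6 passed, both higher, and 26.7% of all tested genes passed (7.84% higher and 18.9% lower). For 46h against 22h, 2 of the 6 passed, both lower, and 42.4% of all tested genes passed (9.87% higher and 32.6% lower). For 46h against 0h, 2 of the 6 passed, 1 in each direction, and 55.9% of all tested genes passed (16.8% higher and 39.1% lower). The libraries did not overlap for 2, 2 and 1 of the 6 genes, whereas 28.9%, 48.6% and 57.3% of all tested genes did not overlap. The median log2 difference of the 6 was 0.67, -0.44 and 0.10, and that of all tested genes was 0.00, -0.26 and -0.25. With 6 genes, these shares were not set apart from the background by any test.

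The comparisons with 46h rest on how libraries that differ in their whole content are scaled. With FPKM as deposited, the median over all tested genes was -0.26 for 46h against 22h and -0.25 for 46h against 0h, and median-of-ratios scaling moved them to 0.02 and 0.06, and quantile scaling to 0.17 and 0.34. Relative to the FPKM median for 46h against 0h, DNMT1 still lay lower (-0.73) and DNMT3B, TET3, UHRF2, TRIM28 and DNMT3A lay higher (0.84, 0.41, 0.11, 0.10 and 0.04). Under median-of-ratios scaling the same order of extremes held, with DNMT3B at 1.22 (limma adjusted p = 0.00021) and DNMT1 at -0.33. DNMT1 changed sign for 46h against 22h under that scaling, from -0.30 to 0.06, and DNMT3A changed sign for 46h against 0h with TPM, from 0.04 to -0.05.

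**Figure D4:**
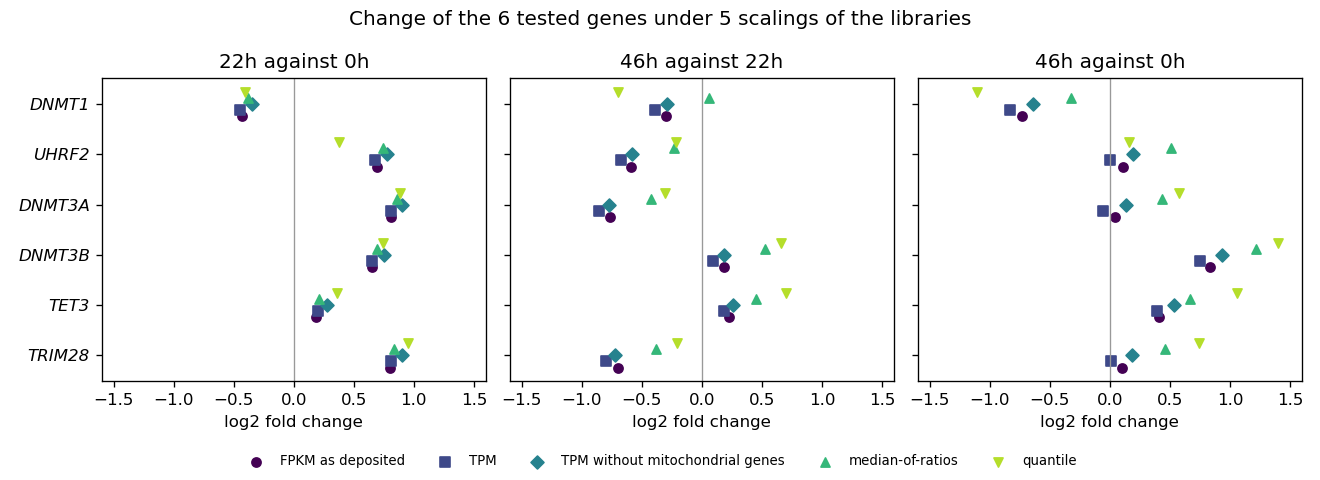
Difference in log2 level of the 6 tested genes under FPKM as deposited and under 4 other scalings (median-of-ratios, quantile, TPM, and TPM without mitochondrially encoded genes), 1 panel per comparison. DNMT3B for 46h against 0h stayed above 0 under every scaling, while DNMT1 for 46h against 22h ran from -0.70 with quantile normalization to 0.06 with median-of-ratios scaling.

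The genes also varied together among libraries of 1 stage. At 0h, replicate 4 had the highest level of all 6 tested genes and replicate 2 the lowest of 5 of them, DNMT1 being the exception, and these were also the libraries with the highest and lowest median-of-ratios factor at 0h (1.389 and 1.003). As deviations from stage means over the 12 libraries, every pair of the 6 genes had a positive Pearson correlation, from 0.37 to 0.92, which the shared library scaling enters into. Across all 12 libraries DNMT3A correlated with TRIM28 at 0.94 and with UHRF2 at 0.91, DNMT3B with TET3 at 0.89, and DNMT1 with DNMT3B at -0.37. These are descriptions over libraries that share their scaling and fall into 3 stages.

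Among all other tested genes with a name, those whose log2 levels followed each gene most closely over the 12 libraries were CBX5 (Pearson r 0.985) and LUC7L2 (0.96) for DNMT1, and UBE2H (0.982) and SCAF8 (0.973) for UHRF2. For DNMT3A they were MCM2 (0.969), a subunit of the replicative helicase, and TRIP13 (0.965), an ATPase of the meiotic checkpoint. For DNMT3B they were RIC1 (0.964) and NR2C1 (0.961), for TET3 STAG1 (0.941) and NRDC (0.941), and for TRIM28 ACVR1 (0.94) and IARS2 (0.94). These too are descriptions with no test, picked as the highest r among all named tested genes. The libraries share their scaling and fall into stages, and whether any of these genes are regulated together was not tested.

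Around these genes, 6 lists of 73 further genes of the pathway were followed, of which 66 were matched and 36 tested. For 22h against 0h 5 rose and 2 fell, for 46h against 22h 4 rose and 8 fell, and for 46h against 0h 10 rose and 11 fell. The shares past the thresholds were 19.4%, 33.3% and 58.3% of the 36, beside 26.7%, 42.4% and 55.9% of all tested genes. Without 0h replicate 4 the counts were 6 and 2, 4 and 10, and 10 and 11. For 46h against 22h the split turned to 9 higher and 6 lower under median-of-ratios and 11 and 6 under quantile scaling, and was 4 and 11 with TPM. For 22h against 0h it was 9 and 1 under quantile scaling, and 5 and 2 with the other scalings counted (median-of-ratios and TPM). For 46h against 0h it moved to 13 higher and 10 lower under median-of-ratios, 16 and 5 under quantile and 9 and 14 under TPM scaling. Of the 21 calls, 20 were kept under median-of-ratios, 15 under quantile and 20 under TPM scaling.

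Among the other methyltransferases and maintenance cofactors, 5 of 9 were tested, and for 46h against 0h 1 rose and 1 fell. TRDMT1, a methyltransferase of transfer RNA once named DNMT2, was at 15.3 ± 2.74, 25.3 ± 2.89 and 31 ± 2.85 FPKM at the 3 stages and rose (SD, n = 4 each, log2 difference 0.98 for 46h against 0h, limma adjusted p = 8.49e-05). CDCA7L fell from 42.8 ± 5.4 to 27.1 ± 5.57 and 9.11 ± 1.51 FPKM (-2.12, limma adjusted p = 1.77e-07). CDCA7, which brings the remodeller HELLS to DNA, rose at 22h by 1.22 (limma adjusted p = 0.0143).

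Of 10 methyl-CpG readers 4 were tested, and for 46h against 0h 2 rose and 1 fell. ZBTB33, also called Kaiso, rose by 1.03 on the log2 scale (limma adjusted p = 0.00138), from 118 ± 32.6 to 236 ± 38 FPKM (SD, n = 4). MBD4, a glycosylase for T opposite G, rose by 0.80 (adjusted p = 0.029), a call lost with TPM and without 0h replicate 4, and MBD2 fell from 5.07 ± 2.15 to 1.89 ± 0.269 FPKM (adjusted p = 0.00226), a call lost with quantile normalization.

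The list of active demethylation and base excision repair had 7 of 16 genes tested, with 3 higher and 2 lower at 46h than at 0h. NEIL3, a DNA glycosylase, rose at both steps, with 217 ± 70.1, 363 ± 73.9 and 675 ± 61.4 FPKM at the 3 stages (SD, n = 4; log2 difference for 46h against 0h 1.69, limma adjusted p = 2.38e-05). Its first step, 0.78, was 0.54 without 0h replicate 4, a fold short of 1.5. POLB, the gap-filling polymerase of base excision repair, rose by 1.53 (limma adjusted p = 1.41e-06) and NEIL1 by 0.97 (adjusted p = 0.000297). APEX1, the endonuclease that cuts at abasic sites, fell by 1.75 (limma adjusted p = 5.38e-08), from 42.4 ± 3.14 FPKM at 0h to 11.9 ± 0.647 at 46h, and PARP1 fell by 1.21 (adjusted p = 3.12e-06). TDG, the glycosylase that removes the oxidised bases TET enzymes make, was listed at 0 in all libraries at 22h and 46h and reached at most 0.21 FPKM at 0h.

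Of 14 partners of imprint protection, 10 were tested, and for 46h against 0h 2 rose and 3 fell. SETDB1, the histone H3 lysine 9 methyltransferase that TRIM28 recruits, was 62.3 ± 18.8 FPKM at 0h, 55.3 ± 15.6 at 22h and 5.5 ± 0.877 at 46h (SD, n = 4 each). From 22h to 46h it fell by 3.09 on the log2 scale (limma adjusted p = 1.25e-07), a call kept under all 4 other scalings. TRIM28 fell by 0.70 over the same step, and the difference between the genes was not tested. ARID4A rose by 0.86 (limma adjusted p = 7.92e-05) and ATRX by 0.71 (adjusted p = 0.0108) from 0h to 46h, and CBX5, which encodes heterochromatin protein HP1 alpha, fell by 1.14 (adjusted p = 0.00363), a call lost with quantile normalization (-0.48).

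Among 12 enzymes and readers of the histone marks that guide methylation in oocytes, 6 were tested, and for 46h against 0h 1 rose and 2 fell. KDM1A, a demethylase of histone H3 lysine 4, rose from 7.57 ± 1.23 to 13.1 ± 1.22 FPKM at 22h (SD, n = 4, log2 difference 0.73, limma adjusted p = 0.00859) and was 14.2 ± 3.56 FPKM at 46h. The histone H3 lysine 36 methyltransferases NSD1 and NSD2 fell by 0.88 and 0.93 from 0h to 46h (limma adjusted p = 0.00229 and 0.00656), and both calls were lost with quantile normalization.

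Of 12 genes of the methyl donor cycle, which makes S-adenosylmethionine, 4 were tested, and for 46h against 0h 1 rose and 2 fell. MTAP, of the methionine salvage pathway, rose by 1.74 (limma adjusted p = 0.00012), from 55.6 ± 18.4 to 182 ± 40.7 FPKM (SD, n = 4). MAT2A, the catalytic subunit of methionine adenosyltransferase, fell by 0.91 (adjusted p = 0.00236), a call lost with median-of-ratios and quantile scaling, and its regulatory subunit MAT2B fell by 1.85 (adjusted p = 1.17e-05).

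**Figure D5:**
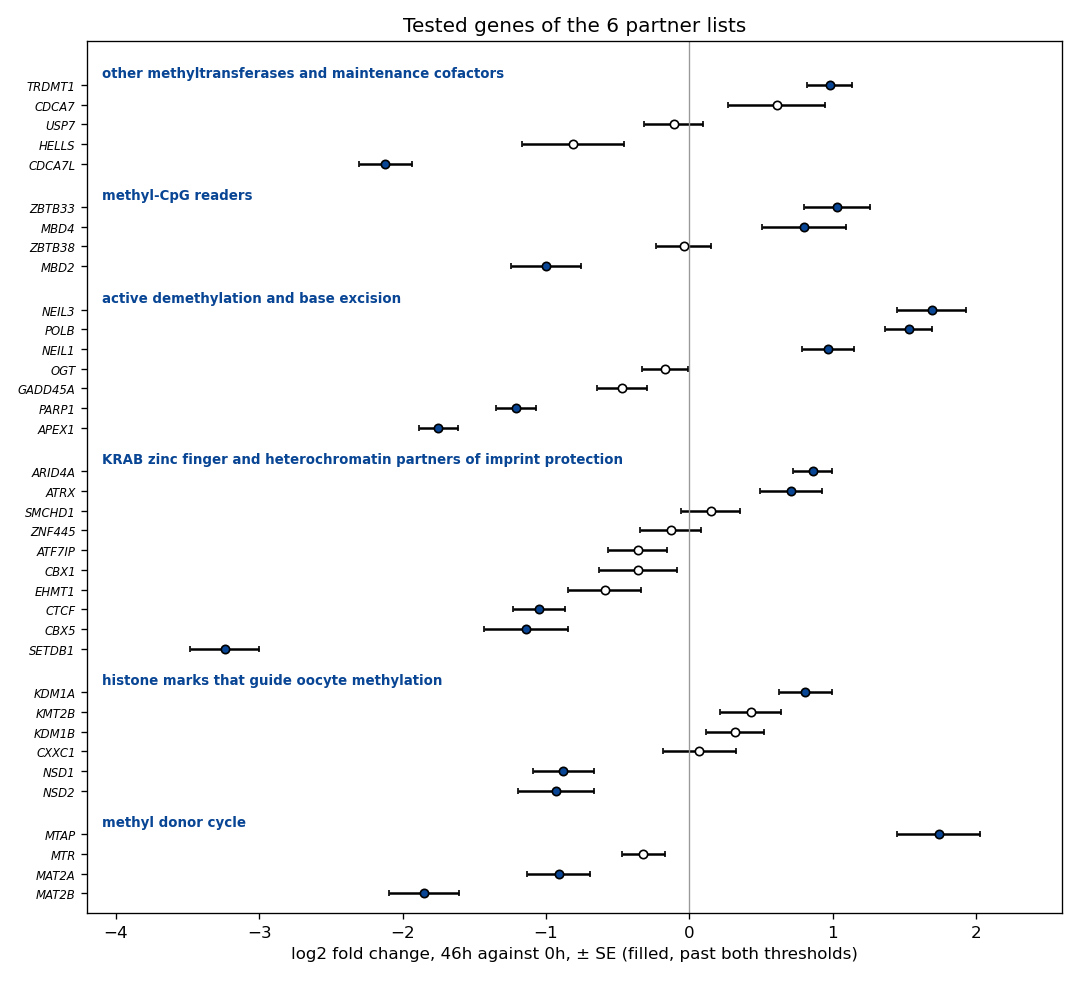
Difference in log2(FPKM + 1) for 46h against 0h of the 36 tested genes in the 6 lists around the methylation genes, grouped by list, with points for genes, bars for the standard error and filled points past both thresholds. SETDB1 lay lowest at -3.24, and MTAP, NEIL3 and POLB lay at 1.74, 1.69 and 1.53.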

How the data were processed

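Per the labels and the study's methods, pools of denuded oocytes were amplified by SMART-Seq2 with oligo-dT priming, and the authors used FastQC, Trim Galore, STAR, HTSeq and RSEM. The authors deposited 1 table of FPKM values per library, with 2 decimals and no counts, so that depth and counting precision are unknown. A linear model with stage as its factor was fitted to log2(FPKM + 1) of all 12 libraries with limma (version 3.58.1, trended eBayes, R version 4.3.3), for the 7013 of 31908 genes whose mean reached 1 FPKM. P-values were two-sided and adjusted by Benjamini-Hochberg over these genes. Genes under the filter were compared by exact permutation tests. The partner genes named are at most the 2 largest passing changes in each direction of each list for 46h against 0h and for 22h against 0h, beside list members that were named after their values were seen (DNMT3L, TET1, TDG). The 10 genes, the lists and the tests were chosen with earlier results of these data known. The fit was tested on simulated data.

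Alternatives were no filter, a filter at a mean of 5 FPKM, a pseudocount of 0.1, scaling by median of ratios or quantiles, TPM with and without mitochondrially encoded genes, eBayes without trend, a fit of 2 groups only, a replicate block, and each library left out in turn. A call by adjusted p alone, without the fold, was also counted among them. The ratios, and the lists without 0h replicate 4, were added after seeing the data. Figures were drawn with matplotlib 3.10.9.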

Additional observations from a re-analysis of the deposited data

Results flagged for a closer look

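In 23 groups of 4 libraries (1 gene at 1 stage), the gap of the highest or lowest library to its nearest neighbour was compared with the range of the group by Dixon's test at the 95% level. Chance passes this check in about 1 of 20 groups of continuous, normally distributed values, which values at the floor are not. It singled out 2 groups. DNMT3B at 22h reached 26.48 FPKM in replicate 1, and the other 3 libraries lay between 21.19 and 21.35 FPKM (gap over range 0.970). ZFP57 at 22h was listed at 0.03 FPKM in replicate 1 and at 0 in the other 3 libraries, so that the gap was the whole range. That follows whenever only 1 library is above 0, and the flag carries no weight for ZFP57.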

How the results depend on the processing

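The number of methylation genes past the thresholds (2 in each comparison) moved as follows. For 22h against 0h it was 1 with no filter, 4 with median-of-ratios scaling, 4 with TPM without mitochondrially encoded genes, and 0 to 4 with each library left out (0 without 0h replicate 2, when 3 had an unadjusted limma p under 0.05, and 4 without 0h replicate 4). Quantile normalization gave 3 in that comparison, but UHRF2 (0.380) no longer passed and DNMT3A (0.887) and DNMT3B (0.739) did. For 46h against 22h it was 0 with no filter (3 at an unadjusted limma p under 0.05), 0 with median-of-ratios scaling (2 at an unadjusted p under 0.05), 1 with TPM without mitochondrially encoded genes, and 0 to 3 with a library left out. With quantile normalization it was 3, but UHRF2 (-0.216) and TRIM28 (-0.206) no longer passed and DNMT1 (-0.701), DNMT3B (0.657) and TET3 (0.699) did. For 46h against 0h it was 4 with quantile normalization and 1 to 2 with a library left out. With the replicate number as a block (replicate block) the counts were 2, 3 and 2, the added gene being DNMT3A for 46h against 22h (-0.767, limma adjusted p = 0.0467). Of 12 pairs of same-numbered libraries, 3 correlated above 0.1 (from -0.466 to 0.381, the 3 all between 22h and 46h). Every same-numbered pair between 22h and 46h was positive (0.00884 to 0.381). With 4 libraries per stage, these correlations cannot decide whether the numbers pair the libraries. The sign changed for DNMT1 for 46h against 22h with median-of-ratios scaling (0.058), for DNMT3A for 46h against 0h with TPM (-0.054) and for UHRF1 for 46h against 0h with median-of-ratios scaling (0.087). With a library left out, it changed within the ranges of DNMT3A (-0.277 to 0.342), UHRF2 (-0.054 to 0.270), TRIM28 (-0.094 to 0.283) and UHRF1 (-0.085 to 0.027) for 46h against 0h, and of DNMT3B (-0.011 to 0.308) and UHRF1 (-0.011 to 0.196) for 46h against 22h. The DNMT3B call for 46h against 0h held under all 23 alternatives, but narrowly without 0h replicate 2 (0.586) and without 46h replicate 3 (limma adjusted p = 0.0459). TET3 has no value at a mean of at least 5 FPKM. The cause of these shifts was not tested.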
